A study of Mus musculus with 7 samples.

Results

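The prostaglandin synthesis and receptor genes were 9 of the 43346 genes in the count table: Ptgs1, Ptgs2, Ptges, Hpgd, Slco2a1, Ptger1, Ptger2, Ptger3 and Ptger4. They were taken by name, through the Ensembl identifier of each symbol, and each was measured in all 7 tumors and passed the filter on low counts that left 15810 genes to test. The tumors were whole colon tumors from mice labelled C57BL6/J, which the methods describe as congenic wild-type recipients, transplanted with bone marrow (BM) and then driven to colitis-associated cancer (CAC). After 1 injection of the carcinogen azoxymethane (AOM) at 10 mg/kg, mice drank 3% dextran sulfate sodium (DSS), which injures the colon lining, in 3 cycles, each a week of DSS, with breaks of 2 weeks. The control group had 3 tumors from mice grafted with Dnmt3a+/+ BM and the other group 4 tumors from mice grafted with Dnmt3a+/Δ BM, given as Dnmt3a(+/-) in the labels, which lacked 1 working copy of the DNA methyltransferase gene Dnmt3a.

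All groups shared the transplant, the AOM/DSS regimen and wild-type recipients, for which the labels give 8 weeks. The deletion had been made in the donors with the interferon-inducible Mx1-Cre before harvest, and donors of both genotypes carried that transgene, so only cells of donor origin could carry the deleted allele. The tumor epithelium, muscle and vessels belonged to the wild-type host. Sample names of Dnmt3a+/+ tumors 1 and 2 and Dnmt3a+/Δ tumors 1 and 2 begin with BMT18. Those of Dnmt3a+/+ tumor 3 and Dnmt3a+/Δ tumors 3 and 4 begin with BMT8. These prefixes were read here as 2 transplant experiments, which the labels do not state. The labels call the tumors biological replicates without saying that each came from its own mouse, so p-values measure only the spread between these tumors.

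Prostaglandins are lipid signals made from arachidonic acid. The cyclooxygenases Ptgs1, which is steadily made in many cells, and Ptgs2, which is induced by cytokines and injury, form prostaglandin H2, and the synthase Ptges turns it into prostaglandin E2 (PGE2). Slco2a1 carries PGE2 into cells and Hpgd, the 15-hydroxyprostaglandin dehydrogenase, inactivates it there, while the 4 receptors EP1 to EP4, encoded by Ptger1 to Ptger4, pass the signal on. In the colon, PGE2 is known for roles in mucosal repair and in tumor growth, and Hpgd is known as a gene of mature surface epithelium that is often low in colon cancer.

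The promoter windows of Ptgs2, Ptges and Hpgd are shown because these genes set the supply and removal of PGE2 and departed most from the other tumors in 1 tumor described below. Windows were found for 8 of the 9 genes in RefSeq (GRCm38.p6). Each is printed 5′ to 3′ on the gene's own strand, from 250 bases before the annotated start to 30 bases after it, with letters that matched a searched motif in capitals. The Ptgs2 window is chr1:150099781-150100060 on the plus strand. The Ptges window is chr2:30903268-30903547 on the minus strand, and the Hpgd window is chr8:56294302-56294581 on the plus strand. Gene spans given further below are from GENCODE M21, whose starts can differ from those of RefSeq. The Ptges window lies inside its GENCODE span of chr2:30889471-30929863, at a RefSeq start away from that span's own start at 30929863.
Ptgs2: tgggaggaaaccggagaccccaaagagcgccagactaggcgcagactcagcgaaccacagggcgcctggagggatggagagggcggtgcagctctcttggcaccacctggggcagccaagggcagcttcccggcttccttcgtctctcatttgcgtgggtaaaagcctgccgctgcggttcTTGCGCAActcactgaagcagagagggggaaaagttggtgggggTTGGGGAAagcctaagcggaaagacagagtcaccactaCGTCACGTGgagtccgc
Ptges: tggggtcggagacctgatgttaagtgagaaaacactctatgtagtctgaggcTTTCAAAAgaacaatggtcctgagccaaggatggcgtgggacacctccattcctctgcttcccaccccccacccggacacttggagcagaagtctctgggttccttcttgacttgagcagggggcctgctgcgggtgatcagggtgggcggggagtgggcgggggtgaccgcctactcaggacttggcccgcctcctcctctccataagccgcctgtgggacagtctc
Hpgd: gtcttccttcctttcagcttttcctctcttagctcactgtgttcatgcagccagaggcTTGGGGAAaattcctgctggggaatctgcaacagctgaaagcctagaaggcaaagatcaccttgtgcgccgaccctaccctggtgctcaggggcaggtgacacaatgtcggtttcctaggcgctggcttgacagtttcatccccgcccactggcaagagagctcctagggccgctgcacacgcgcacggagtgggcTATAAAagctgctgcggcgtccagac

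The motifs searched on both strands were the TATA box TATAAA, the cAMP response element core CGTCA, the E box CACGTG, the AP-1 site TGANTCA, the C/EBP site TTNNGNAA and the NF-kB site by name. In the Ptgs2 window the response element core lay 14 to 18 bases after the start and shared letters with an E box at 17 to 22 bases after it, and C/EBP matches lay 69 to 62 and 25 to 18 bases before the start. The Ptges window held 1 C/EBP match, 198 to 191 bases before the start. The Hpgd window held a TATA box 5 to 10 bases after the RefSeq start and a C/EBP match 192 to 185 bases before it. In GENCODE M21 Hpgd starts at 56294585, past the end of the printed window at 56294581. By that annotation the TATA box therefore lies before the start of the gene. Among 32851 RefSeq windows reaching 50 bases past the start, 20.81% held the response element core, 7.15% the E box, 40.68% a C/EBP match, 13.62% the TATA box, 7.81% an AP-1 match and 8.46% an NF-kB match. The core, the E box and a C/EBP match occurred together in 0.60% of them. A match describes letters in a window and is neither a bound site nor a cause of any level below.

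Total counts per tumor ranged from 38472738 to 64314999. Levels are given as CPM, which scales each count to a common library size, here one adjusted by the trimmed mean of M values (TMM). Fold changes are log2 values of Dnmt3a+/Δ BM over Dnmt3a+/+ BM from the quasi-likelihood test of edgeR, and adjusted p-values were corrected by Benjamini-Hochberg over all 15810 genes. Dnmt3a itself measured 24.3, 23.1 and 20.2 CPM in Dnmt3a+/+ tumors 1 to 3 and 27.7, 43.0, 28.3 and 22.0 CPM in Dnmt3a+/Δ tumors 1 to 4, with a log2 fold change of 0.43 (SE 0.24, edgeR adjusted p = 0.542). The count covers the whole gene and the host's intact copies, so it does not check the graft's genotype. The epithelial markers Epcam, Cdh1, Krt8, Krt18, Vil1 and Cdx2 had a mean of 8.95 to 9.86 log2 CPM in every tumor, and 5 of 6 were lower and 1 higher in Dnmt3a+/Δ BM tumors, the latter at an unadjusted p under 0.05 in edgeR. Dnmt3a+/Δ tumor 2 stood apart, with the highest level of the 7 tumors in 24.7% of tested genes and the lowest in 25.3%, and Dnmt3a+/+ tumor 3 carried almost no smooth muscle RNA.

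None of the 9 genes met the calling rule of an adjusted p under 0.05 with an absolute log2 fold change over 1 in edgeR, and neither did any other gene (0% of those tested). At an unadjusted p under 0.05 edgeR gave 1 of the 9, Ptger3, against 11.0% of tested genes. DESeq2 gave a p-value for 8 of the 9 genes and called 0 of them, against 1.87% of the genes it adjusted. Levels in the 2 groups did not overlap for 1 of the 9, Ptges, against 12.4% of tested genes. By direction 4 genes were higher and 5 lower in Dnmt3a+/Δ BM tumors, with a median log2 fold change of -0.06 beside 0.0025 over all genes tested.

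**Figure D1:**
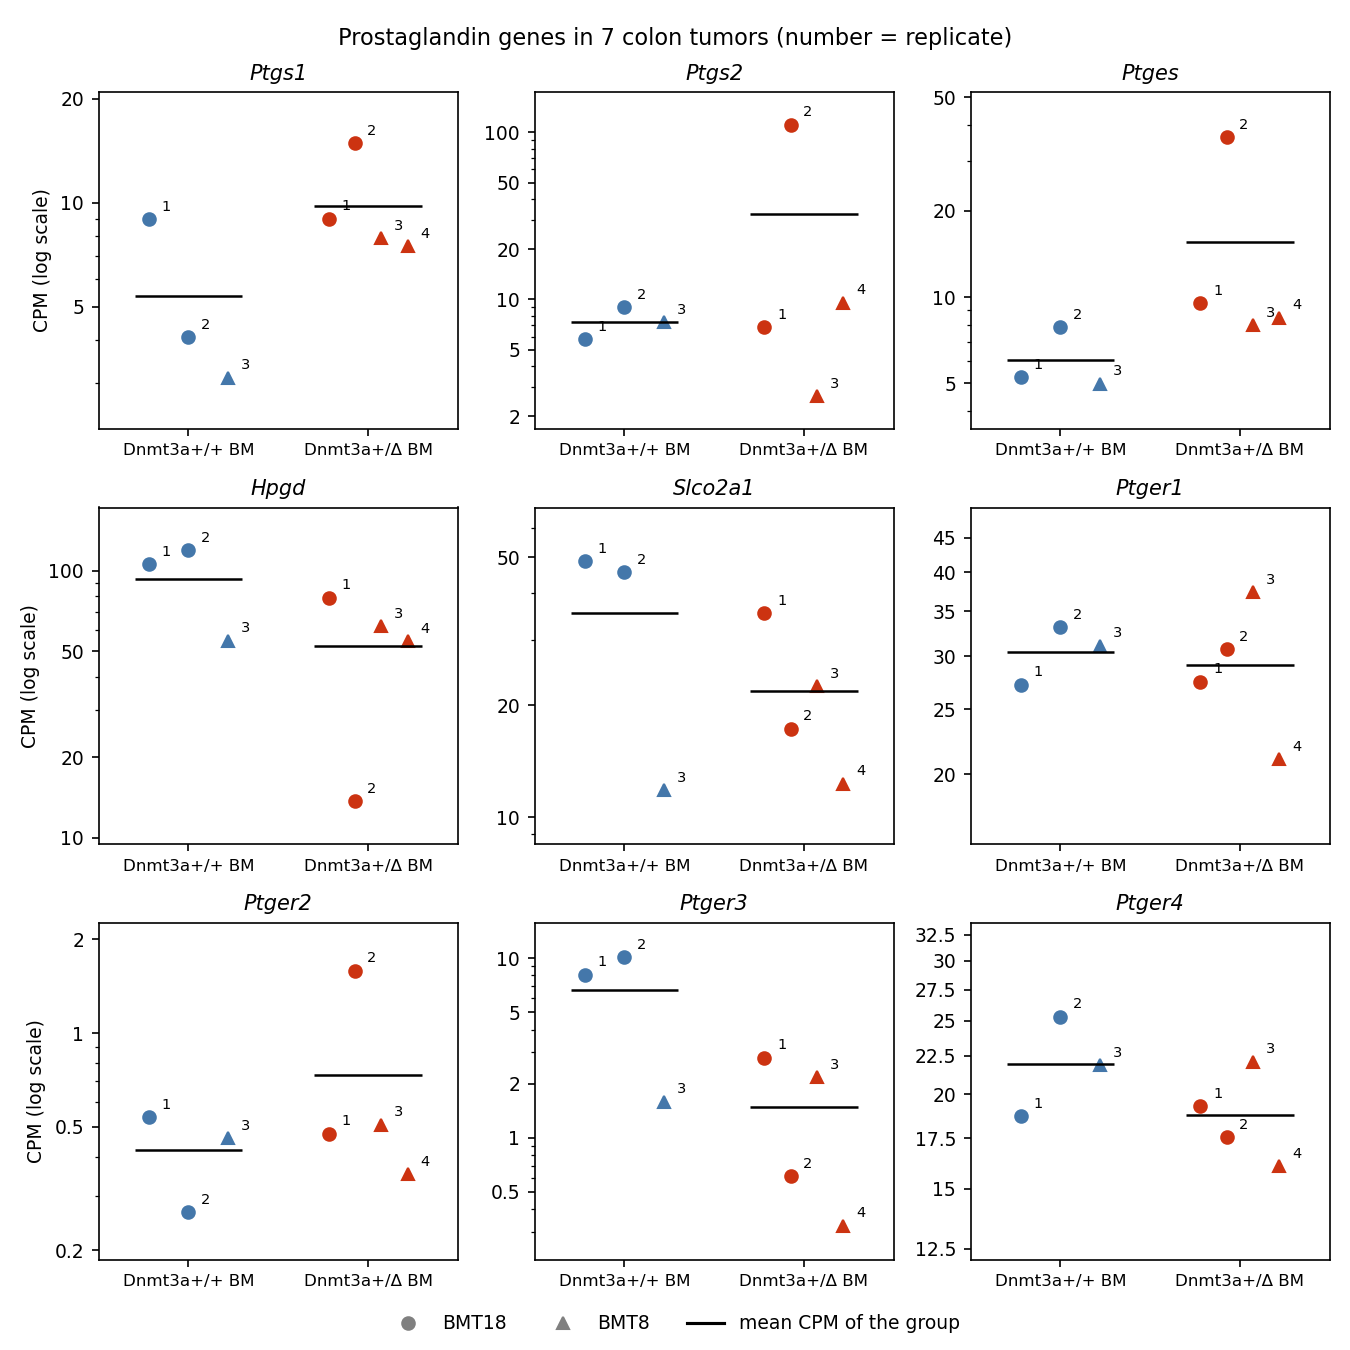
Level of each prostaglandin gene in CPM (log axis) in 3 Dnmt3a+/+ BM tumors (blue) and 4 Dnmt3a+/Δ BM tumors (red), with circles for BMT18, triangles for BMT8, numbers for replicates and a bar at the mean. Dnmt3a+/Δ tumor 2 is the highest point for Ptgs1, Ptgs2, Ptges and Ptger2 and the lowest for Hpgd, and the groups do not overlap for Ptges.

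Compared per kilobase of exon, so that genes can be set side by side, Hpgd had the highest median of the 9 over the tumors. It was 36.7 CPM per kilobase, with a range of 8.15 to 70.6. In Dnmt3a+/Δ tumor 2, however, Ptgs2 at 24.3 and Ptges at 9.23 lay above Hpgd at 8.15. The lowest tumor of Hpgd lay above the highest tumor of Ptger1, the next by median, which ranged from 3.86 to 6.84 with a median of 5.62. Ptger4 followed at a median of 2.90, Ptges and Ptgs1 both at 2.03, Slco2a1 at 1.66 and Ptgs2 at 1.59 CPM per kilobase, and the ranges of these neighbours overlapped. Their order depends on the length used, since by the longest transcript in place of all exons the mean over the tumors was 3.89 rather than 2.04 CPM per kilobase for Slco2a1 and 5.34 rather than 3.03 for Ptger4, against 2.76 for Ptgs1 and 3.15 for Ptges. Ptger3 at 0.382 and Ptger2 at 0.0913 were the lowest. By their mean over the tumors, Hpgd stood at the 91.3rd percentile of tested genes and Ptger2 at the 4.64th.

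Ptgs2, the inducible cyclooxygenase (chr1:150100031-150108227, plus strand), was low in 6 tumors and high in 1. It measured 5.80, 8.96 and 7.28 CPM in Dnmt3a+/+ tumors 1 to 3 and 6.81, 111.3, 2.64 and 9.54 CPM in Dnmt3a+/Δ tumors 1 to 4. The other Dnmt3a+/Δ tumors spanned the range of the controls, whereas tumor 2 was 15.8-fold above the median of the other 6 and ranked 59 among 15810 genes by that measure. The mean was 32.6 ± 52.6 CPM (SD, n = 4) against 7.35 ± 1.58 CPM (SD, n = 3), and the fitted log2 fold change of 2.15 (SE 1.23, edgeR adjusted p = 0.551) did not exceed the spread between tumors. Without Dnmt3a+/Δ tumor 2 the direction turned, to a log2 fold change of -0.19 (SE 0.47, edgeR adjusted p = 0.983). DESeq2 gave Ptgs2 no p-value because its Cook's distance in that tumor was 21.4, above the limit of 13.3.

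Ptges, the inducible PGE2 synthase (chr2:30889471-30929863, minus strand), was higher in all 4 Dnmt3a+/Δ BM tumors. Control tumors 1 to 3 had 5.27, 7.87 and 4.99 CPM and Dnmt3a+/Δ tumors 1 to 4 had 9.51, 36.3, 7.98 and 8.489 CPM. The groups lay apart by a narrow margin, between 7.87 and 7.98 CPM, and tumor 2 again stood far above the rest. This gave a log2 fold change of 1.36 (SE 0.61, 95% interval -0.04 to 2.77), with an unadjusted p of 0.0559 and an adjusted p of 0.466 in edgeR. Without tumor 2 it was 0.55 (SE 0.26, edgeR adjusted p = 0.751), with a mean of 8.66 ± 0.777 CPM (SD, n = 3) against 6.04 ± 1.59 CPM (SD, n = 3). The exact permutation test over the 35 splits of the tumors, two-sided, gave p = 0.114, where the smallest p it allows is 0.0286.

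Ptgs1, the constitutive cyclooxygenase (chr2:36230426-36252272, plus strand), measured 8.95, 4.07 and 3.12 CPM in control tumors 1 to 3. In Dnmt3a+/Δ tumors 1 to 4 it measured 8.98, 14.9, 7.88 and 7.49 CPM. All 4 lay above control tumors 2 and 3, but control tumor 1 fell among them. Its log2 fold change of 0.87 (SE 0.44, edgeR adjusted p = 0.511) became 0.62 without Dnmt3a+/Δ tumor 2 and 1.44 without control tumor 1. Within BMT18 the difference in mean log2 CPM was 0.93, and within BMT8, which had only 1 control tumor, it was 1.29.

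Hpgd, the enzyme that inactivates PGE2 (chr8:56294585-56321043, plus strand), was highest in the 2 control tumors of BMT18 and lowest in Dnmt3a+/Δ tumor 2. Its levels were 105.6, 118.9 and 54.7 CPM in control tumors 1 to 3 and 79.1, 13.7, 61.8 and 54.5 CPM in Dnmt3a+/Δ tumors 1 to 4. The third control tumor fell within the range of the Dnmt3a+/Δ tumors, so the groups overlapped. Hpgd had a log2 fold change of -0.83 (SE 0.53, edgeR adjusted p = 0.591), and -0.49 (SE 0.30, edgeR adjusted p = 0.823) without Dnmt3a+/Δ tumor 2. The difference in mean log2 CPM was -1.76 within BMT18 and 0.09 within BMT8, and the interaction of group and experiment did not pass (edgeR adjusted p = 0.9999).

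Slco2a1, the prostaglandin transporter (chr9:102988712-103096002, plus strand), ordered the tumors in a similar way. It measured 48.8, 45.6 and 11.8 CPM in control tumors 1 to 3 and 35.4, 17.3, 22.5 and 12.3 CPM in Dnmt3a+/Δ tumors 1 to 4. Control tumor 3 was the lowest of all 7 and the other controls were the highest. For Slco2a1 the log2 fold change was -0.70 (SE 0.52, edgeR adjusted p = 0.647), ranged over the fits that left out 1 tumor from -1.11 without control tumor 3 to -0.40 without control tumor 1, and was -0.93 within BMT18 and 0.49 within BMT8 as a difference in mean log2 CPM.

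**Figure D2:**
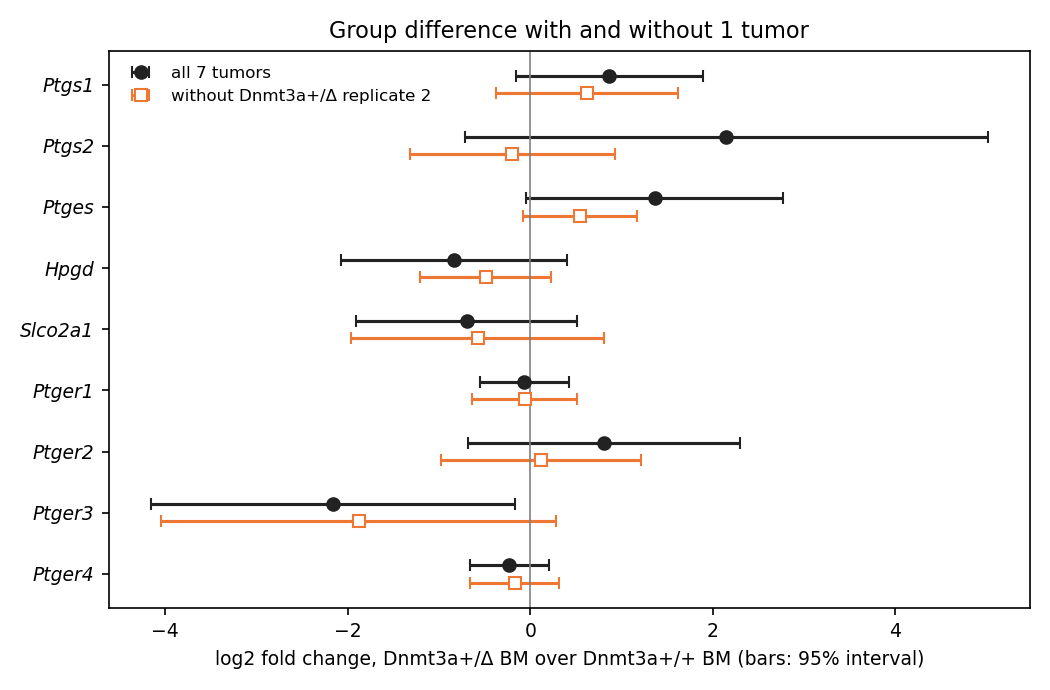
Log2 fold change of Dnmt3a+/Δ BM over Dnmt3a+/+ BM for each gene, with 95% intervals from edgeR, for all 7 tumors (filled circles) and without Dnmt3a+/Δ tumor 2 (open squares). Ptgs2 moves from 2.15 to -0.19, Ptges from 1.36 to 0.55 and Ptger2 from 0.81 to 0.12, while Ptger3 moves from -2.16 to -1.88.

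Ptgs2 and Hpgd were set against each other in each tumor, as a ratio of transcripts rather than of PGE2. The log2 ratio of Ptgs2 to Hpgd in CPM was -4.19, -3.73 and -2.91 in control tumors 1 to 3 and -3.54, 3.02, -4.55 and -2.51 in Dnmt3a+/Δ tumors 1 to 4. Hpgd exceeded Ptgs2 by 5.71-fold to 23.4-fold in 6 tumors, and Ptgs2 exceeded Hpgd by 8.12-fold in Dnmt3a+/Δ tumor 2. The log2 ratio of Ptgs2 to Ptgs1 was 2.90 in that tumor and -1.58 to 1.22 in the others.

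**Figure D3:**
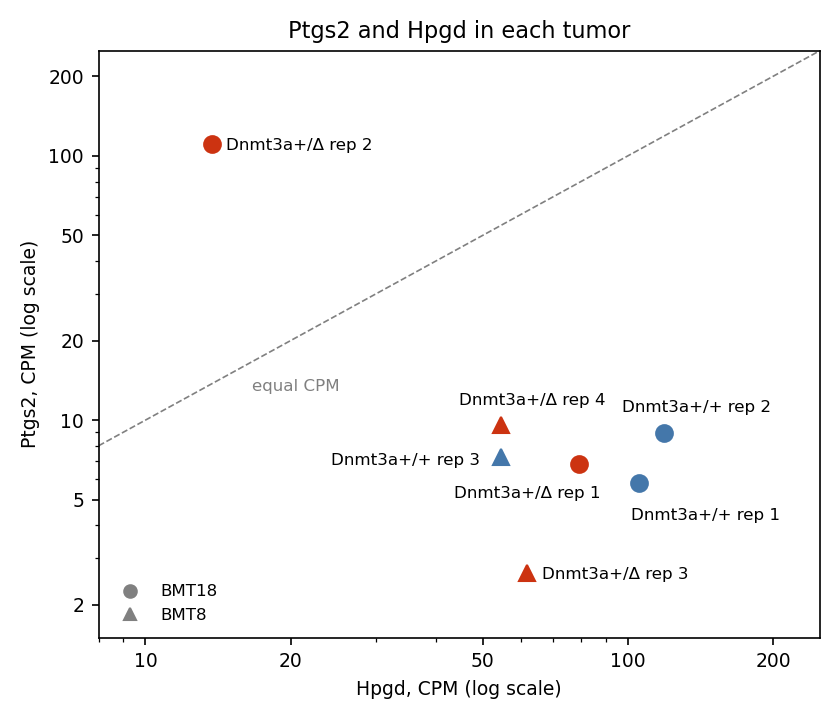
Ptgs2 against Hpgd in CPM (both axes log), 1 point per tumor in blue for Dnmt3a+/+ BM and red for Dnmt3a+/Δ BM, with circles for BMT18 and triangles for BMT8 and a dashed line at equal levels. Dnmt3a+/Δ tumor 2, at 111.3 CPM of Ptgs2 and 13.7 CPM of Hpgd, is the only point above the line.

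Of the 4 PGE2 receptors, Ptger3 had the largest fitted change. Ptger3 encodes EP3, which lowers cAMP (chr3:157566892-157645888, plus strand), and measured 8.09, 10.1 and 1.59 CPM in control tumors 1 to 3. In Dnmt3a+/Δ tumors 1 to 4 it measured 2.79, 0.611, 2.17 and 0.324 CPM, the last from 12 counts. Both BMT18 controls lay above every other tumor, and control tumor 3 fell inside the range of the Dnmt3a+/Δ tumors. Its log2 fold change was -2.16 (SE 0.86, 95% interval -4.15 to -0.17), with an unadjusted p of 0.0369 and an adjusted p of 0.432 in edgeR, while DESeq2 gave an adjusted p of 0.147. Without Dnmt3a+/Δ tumor 2 it was -1.88 at an unadjusted p of 0.0791 in edgeR, with experiment as a covariate it was -1.69 at an unadjusted p of 0.110, and the difference in mean log2 CPM was -2.74 within BMT18 and -0.85 within BMT8.

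Ptger2 and Ptger4 encode EP2 and EP4, which raise cAMP. Ptger2 (chr14:44988195-45003820, plus strand) was scarce, with 0.537, 0.265 and 0.459 CPM in control tumors 1 to 3 and 0.474, 1.59, 0.508 and 0.351 CPM in Dnmt3a+/Δ tumors 1 to 4. The level in tumor 2 came from 78 counts and those in the others from 13 to 25, and only tumor 2 left the range of the rest. Its fitted change of 0.81 on the log2 scale (SE 0.64, edgeR adjusted p = 0.668) was 0.12 without it. Ptger4 (chr15:5206661-5244187, minus strand) was the steadiest of these receptors beside Ptger1, with 18.7, 25.3 and 21.8 CPM in control tumors 1 to 3 and 19.3, 17.6, 22.1 and 16.1 CPM in Dnmt3a+/Δ tumors 1 to 4. The groups overlapped, and the log2 fold change of -0.23 (SE 0.19, edgeR adjusted p = 0.682, 95% interval -0.66 to 0.21) was -0.11 without control tumor 2.

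Ptger1 encodes EP1, which signals through calcium (chr8:83666678-83672753, plus strand). It measured 27.2, 33.1 and 31.1 CPM in control tumors 1 to 3 and 27.5, 30.7, 37.3 and 21.1 CPM in Dnmt3a+/Δ tumors 1 to 4, so both the highest and the lowest tumor were in the Dnmt3a+/Δ BM group. The log2 fold change was -0.06 (SE 0.21, edgeR adjusted p = 0.942). On library size alone it was 0.16 beside a median of 0.21 over all genes tested, and with upper-quartile scaling 0.02 beside a median of 0.09, so it lay below the median of all genes each time. The library kit kept strand, but whether the counting used it was not given in the sources used here, so the level of Ptger1 is uncertain.

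Across the 7 tumors, the log2 CPM values of Ptgs2 and Ptges had a Pearson correlation of 0.87, and those of Ptgs2 and Hpgd one of -0.81. Without Dnmt3a+/Δ tumor 2 these were 0.01 and 0.16 over 6 tumors, so both rested on that tumor. Hpgd, Slco2a1 and Ptger3 ranked the tumors alike with and without it. Hpgd and Slco2a1 correlated at 0.61 over 7 tumors and 0.94 over 6, Hpgd and Ptger3 at 0.74 and 0.90, and Slco2a1 and Ptger3 at 0.88 both times. These are descriptions over few tumors, and the values of 1 tumor share a library, its depth and its cell makeup.

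Among all tested genes, those most like each member over the 7 tumors were named by Pearson correlation of log2 CPM, 3 for each. For Ptgs2 they were Aldh9a1 (0.99), Plod2 (0.97) and Hp (0.97), and Plod2 and Hp dropped to 0.79 and 0.78 without Dnmt3a+/Δ tumor 2. Ptges was most like Fkbp14, Igf2r and Zfp518b, Ptgs1 most like Wwtr1, Reck and Bace1, and Ptger2 most like B4galt2, Aldh1a2 and Lrrc25. Hpgd was most like Ano1, Ngly1 and Fam151b, Slco2a1 most like Erlin1, Far1 and Kdm4c, and Ptger3 most like Adgrg7, Themis3 and Zdhhc7. Ptger4 was most like Acad10, Kcnh8 and Tm9sf4, and Ptger1 most like Wbp2, BC035044 and a gene without a symbol.

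Markers of other cell types were read beside these genes. Fewer cells of a type and less RNA per cell cannot be told apart in a bulk tumor. For Hpgd, Slco2a1 and Ptger3, one list that moved with them was that of mature surface colonocytes (Car1, Car4, Slc26a3, Aqp8, Krt20 and Ceacam20), of which 6 of 6 were lower in Dnmt3a+/Δ BM tumors, 1 of them at an unadjusted p under 0.05 in edgeR, with a median log2 fold change of -1.21, which was -0.66 with experiment as a covariate. Their summed level was 1496 to 1715 CPM in the controls and 670.1 to 1205 CPM in the Dnmt3a+/Δ tumors, and no gene of the list was at 0. The sum was mostly Krt20 and Car1, at 1103 and 341.3 CPM in control tumor 3, where Car4, Slc26a3 and Aqp8 were at their lowest of the 7 tumors (3.52, 2.14 and 3.55 CPM). By mean log2 CPM, which weights the genes equally, control tumor 3 was the lowest tumor at 4.95, beside 7.58 and 7.48 in the other controls and 5.24 to 6.48 in the Dnmt3a+/Δ tumors. Its mean log2 CPM correlated at 0.49 with Hpgd, 0.89 with Slco2a1 and 0.81 with Ptger3 over 7 tumors, and at 0.90, 0.90 and 0.85 over 6 without Dnmt3a+/Δ tumor 2. The part of these cells in the levels of the 3 genes was not tested.

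Ptgs2 and Ptges were highest and Hpgd was lowest in Dnmt3a+/Δ tumor 2. The fibroblast list (Col1a1, Col1a2, Col3a1, Pdgfra, Dcn and Lum) was also highest there, as were several lists below. It was higher in 6 of 6 genes, 1 of them at an unadjusted p under 0.05, and summed to 149.0 to 294.5 CPM in controls and 223.4 to 993.1 CPM in Dnmt3a+/Δ tumors, with the top of the latter in tumor 2. Its mean log2 CPM was 6.53 in Dnmt3a+/Δ tumor 2 and 3.58 to 4.75 in the others, and its median log2 fold change fell from 1.09 to 0.24 without that tumor. It correlated at 0.87 with Ptgs2, 0.85 with Ptges and -0.96 with Hpgd over 7 tumors, and at 0.02, -0.12 and -0.77 over 6 without tumor 2. For Ptger2 these values were 0.90 and 0.39. The endothelial list (Pecam1, Cdh5, Kdr, Tek, Emcn and Vwf) was higher in 6 of 6 genes, 4 of them at an unadjusted p under 0.05 and 4 with groups that did not overlap. It summed to 12.1 to 22.8 CPM in controls and 20.5 to 130.1 CPM in Dnmt3a+/Δ tumors, with a mean log2 CPM of 4.06 in tumor 2 and 0.53 to 2.89 in the others. That mean correlated at -0.93 with Hpgd and -0.88 with Ptger3 over 7 tumors, and at -0.84 and -0.96 over 6 without tumor 2. Neither list held a gene at 0, and the part of these cells in the high Ptgs2 and Ptges of Dnmt3a+/Δ tumor 2 was not tested.

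Markers of blood cells and tuft cells were read as well. The macrophage genes (Adgre1, Csf1r, Cd68, C1qa, C1qb and Mrc1) were higher in 5 of 6, with none at an unadjusted p under 0.05, and summed to 47.5 to 100.6 CPM in controls and 49.4 to 199.2 CPM in Dnmt3a+/Δ tumors, with a median log2 fold change of 0.79 that was 0.08 without Dnmt3a+/Δ tumor 2. The neutrophil genes (S100a8, S100a9, Csf3r, Cxcr2 and Retnlg) were higher in 1 of 5, with none at an unadjusted p under 0.05, and summed to 78.5 to 141.8 CPM and 71.0 to 129.2 CPM. Ptprc, the pan-leukocyte gene, measured 6.70 to 16.4 CPM and 6.57 to 21.7 CPM. Ptger2 correlated at 0.95 with the macrophage mean log2 CPM over 7 tumors and at 0.84 without Dnmt3a+/Δ tumor 2. It correlated at 0.85 with Ptprc both times, and at 0.08 and 0.71 with the neutrophil mean. Ptgs1 correlated at 0.83 with the mast cell mean over 7 tumors and at 0.71 without Dnmt3a+/Δ tumor 2. For Ptgs1 and the epithelial mean these values were -0.80 and -0.78. The mast cell mean includes genes near the floor, with Cpa3, Tpsb2 and Mcpt4 at 0, 0 and 0.031 CPM in control tumor 3. Mast cell genes (Cpa3, Tpsb2, Mcpt4, Cma1 and Kit) were higher in 4 of 5, the other being lower at an unadjusted p under 0.05, and summed to 11.8 to 24.8 CPM and 7.19 to 39.6 CPM, and their median log2 fold change turned from 1.56 to -0.75 without Dnmt3a+/Δ tumor 2. For tuft cells, epithelial cells that also make prostaglandins, 4 of 6 genes were tested and 4 were higher, 1 of them at an unadjusted p under 0.05, the list summed to 17.3 to 53.2 CPM in controls and 50.9 to 92.9 CPM in Dnmt3a+/Δ tumors, and Il25 was at 0 in every tumor. The sum was mostly Avil, at 15.8 to 51.5 CPM in controls and 48.7 to 87.8 CPM in Dnmt3a+/Δ tumors. The tuft cell median log2 fold change of 1.03 was 0.53 without Dnmt3a+/Δ tumor 2. In that tumor the macrophage, mast cell and tuft cell means and Ptprc were highest, at 4.72, 2.33, 2.10 and 4.44 log2 CPM, but the neutrophil mean was not. With the macrophage mean, Ptgs2 and Ptges correlated at 0.70 and 0.73 over 7 tumors and at -0.42 and -0.28 without that tumor. Hpgd correlated at -0.86 and -0.74 with the tuft cell mean. The part of all these cells in the levels of the 9 genes was not tested.

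Smooth muscle genes (Acta2, Myh11, Des, Tagln, Cnn1 and Actg2) summed to 22.6 CPM in control tumor 3 and to 243.1 to 1167 CPM in the other tumors, and 6 of 6 were lowest in control tumor 3. The list was higher in 3 genes and lower in 3, with a median log2 fold change of 0.08 that was -0.50 without control tumor 3, -1.05 in BMT18 alone and 0.50 with experiment as a covariate, and its mean log2 CPM correlated at 0.68 with Slco2a1 and 0.51 with Ptgs1 over 7 tumors. For Ptges that correlation was 0.12. Without Dnmt3a+/Δ tumor 2 the values were 0.68 for Slco2a1, 0.73 for Ptgs1 and 0.57 for Ptges. Control tumor 3 was also the lowest tumor for 3 of the 9 genes, Ptgs1, Ptges and Slco2a1, beside 19.7% of all tested genes. The part of the missing muscle RNA in those levels was not tested.

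The genes around this pathway were counted by step from lists. Of 7 phospholipases that release arachidonic acid, 4 were higher and 3 lower, with a median log2 fold change of 0.80, and 3 had an unadjusted p under 0.05 in edgeR, 1 higher and 2 lower. Pla2g10, a secreted phospholipase, measured 68.6, 85.4 and 84.1 CPM in control tumors 1 to 3 and 39.2, 17.7, 52.5 and 43.8 CPM in Dnmt3a+/Δ tumors 1 to 4. The groups did not overlap, and the log2 fold change was -1.05 (SE 0.33, edgeR adjusted p = 0.384). DESeq2 called it only with experiment as a covariate, an alternative chosen after seeing the data, at -1.18 (adjusted p = 0.0218), and not without it (adjusted p = 0.137). Pla2g4a, the cytosolic phospholipase that feeds the cyclooxygenases, had a log2 fold change of -0.46 (SE 0.20) and Pla2g6 one of 0.91 (SE 0.34), with edgeR adjusted p of 0.450 and 0.420.

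Among 7 other terminal synthases, 4 were higher and 3 lower, with a median log2 fold change of 0.09 that was -0.10 in edgeR without Dnmt3a+/Δ tumor 2 and -0.13 in BMT18 alone. Ptges2, a second PGE2 synthase, measured 39.6, 37.2 and 38.9 CPM in control tumors 1 to 3 and 25.8, 28.6, 24.0 and 31.8 CPM in Dnmt3a+/Δ tumors 1 to 4. It lay lower in 4 of 4 Dnmt3a+/Δ tumors with no overlap, opposite in direction to Ptges, with a log2 fold change of -0.49 (SE 0.14, edgeR adjusted p = 0.377). Ptgds, the prostaglandin D2 synthase, had 2, 1 and 5 counts in the controls and 4, 66, 48 and 35 counts in Dnmt3a+/Δ tumors 1 to 4. Dnmt3a+/Δ tumor 1 fell among the controls. DESeq2 called it at a log2 fold change of 3.61 (adjusted p = 0.0291), and at 3.65 (adjusted p = 0.0262) with experiment as a covariate, while edgeR did not (3.57, adjusted p = 0.377). Without Dnmt3a+/Δ tumor 2 the DESeq2 value was 3.28 (adjusted p = 0.179).

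Of the 4 genes for export and reduction of prostaglandins, 2 were higher and 2 lower (median log2 fold change 0.09), and 1 in each direction had groups that did not overlap. Abcc4, which exports PGE2 from cells, measured 44.8, 32.8 and 46.6 CPM in control tumors 1 to 3 and 66.5, 127.5, 59.8 and 63.0 CPM in Dnmt3a+/Δ tumors 1 to 4. Its log2 fold change was 0.94 (SE 0.30, edgeR adjusted p = 0.392) and 0.64 without Dnmt3a+/Δ tumor 2. Cbr1, a carbonyl reductase that converts PGE2 to prostaglandin F2α, measured 165.7, 155.7 and 205.5 CPM in control tumors 1 to 3 and 81.6, 91.9, 116.7 and 114.3 CPM in Dnmt3a+/Δ tumors 1 to 4. The log2 fold change of -0.80 (SE 0.18, edgeR adjusted p = 0.361) was -0.79 in DESeq2, past an adjusted p of 0.05 (0.0331) without reaching the fold limit. The DESeq2 value was -0.75 (adjusted p = 0.177) without Dnmt3a+/Δ tumor 2 and -0.85 (adjusted p = 6.1e-06) with experiment as a covariate. The two-sided exact permutation p was 0.0286 for both Abcc4 and Cbr1, the smallest that 35 splits can give, before any correction for the number of genes.

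Of 5 receptors for other prostanoids, 2 were expressed enough to test, Ptgfr and Tbxa2r, and neither had an unadjusted p under 0.05. The 5 together summed to 0.704 to 0.967 CPM in controls and 0.812 to 1.53 CPM in Dnmt3a+/Δ tumors. Of 6 genes of the lipoxygenase branch, which takes arachidonic acid to leukotrienes and other products, 5 were higher and 1 lower and none had an unadjusted p under 0.05, with a median log2 fold change of 0.43 that was 0.06 without Dnmt3a+/Δ tumor 2, 0.25 without control tumor 2 and 0.82 in BMT18 alone. Alox15, a 15-lipoxygenase, reached 388.9 CPM in Dnmt3a+/Δ tumor 2 and 15.7 to 69.9 CPM in the other tumors.

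The cytokines and chemokines listed as inducers or companions of Ptgs2 were high in the same tumor. All 6 of Il1a, Il1b, Il6, Tnf, Cxcl1 and Cxcl2 had their highest level in Dnmt3a+/Δ tumor 2, beside 24.7% of all tested genes. Il6 measured 13.1 CPM there and at most 0.774 CPM elsewhere, and Cxcl1 measured 73.1 CPM there and 2.90 to 6.67 CPM elsewhere. By group, 5 were higher and 1 lower with a median log2 fold change of 0.44, none had an unadjusted p under 0.05, and the median was -0.38 without that tumor. Of 10 early genes that cAMP induces, downstream of EP2 and EP4 among others, 7 were higher and 3 lower (median 0.23), and 5 of 10 were highest in Dnmt3a+/Δ tumor 2. Nr4a2, an orphan nuclear receptor, measured 1.69, 1.55 and 2.42 CPM in control tumors 1 to 3 and 2.37, 9.60, 4.37 and 4.27 CPM in Dnmt3a+/Δ tumors 1 to 4. Only Dnmt3a+/Δ tumor 1 overlapped the controls, and the log2 fold change was 1.45 (SE 0.51, edgeR adjusted p = 0.406).

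**Figure D4:**
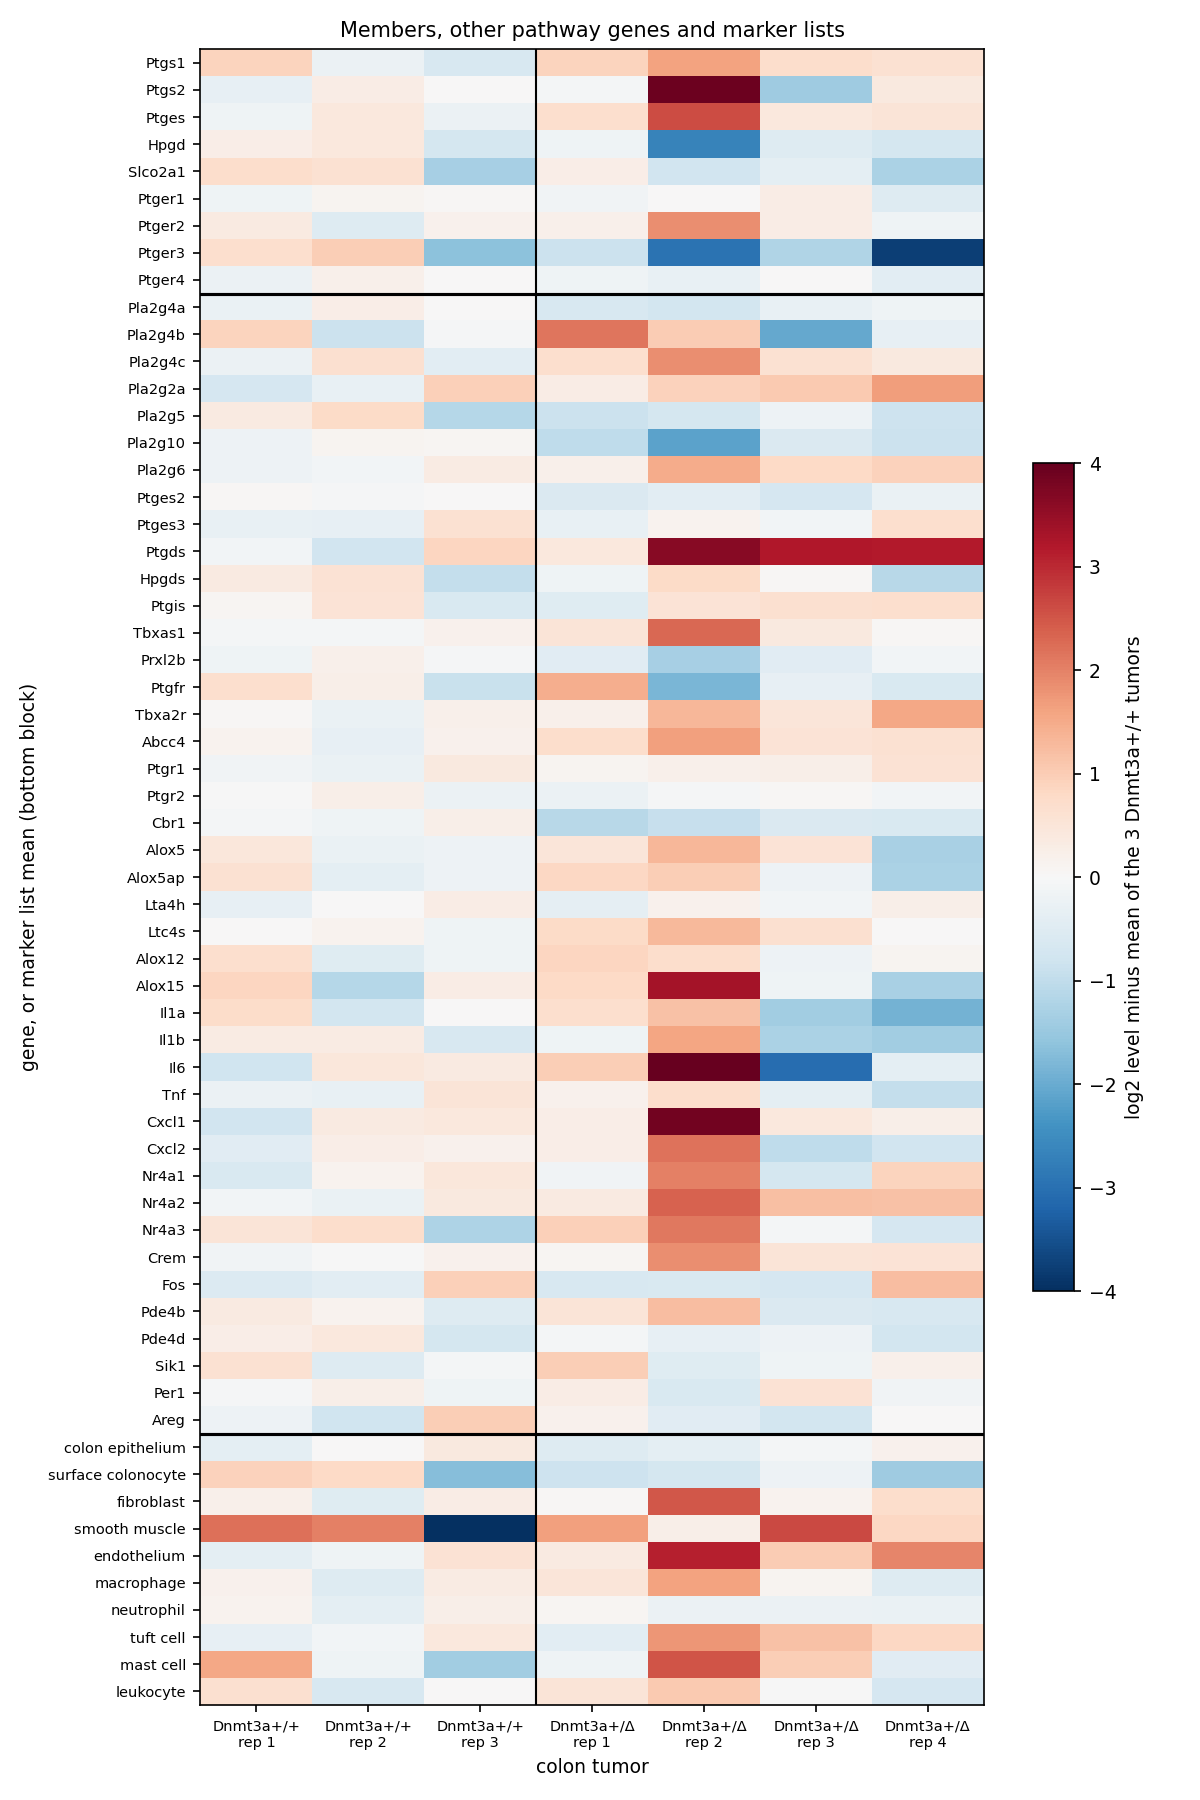
Log2 level minus the mean of the 3 Dnmt3a+/+ tumors, by tumor (columns), for the 9 genes (top block), the 42 tested genes of the surrounding pathway (middle block, both blocks as log2 of CPM plus 0.05) and 10 marker lists as mean log2 CPM (bottom block); colours end at 4 on either side. Dnmt3a+/Δ tumor 2 is red for Ptgs2, Ptges, Il6, Cxcl1 and the fibroblast and endothelial lists and blue for Hpgd and Ptger3, and control tumor 3 is blue for smooth muscle.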

How the data were processed

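RNA libraries of 7 whole tumors were grouped by the labels into 4 from Dnmt3a+/Δ grafts and 3 from controls. The deposited values were expected counts per gene: per the methods and the submitters' processing notes, the authors trimmed reads with Trimmomatic, aligned them to mm10 with STAR and estimated counts with RSEM, then ran DESeq2. The annotation release and the strand setting were not given in the sources used here.

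Expected counts were rounded to whole numbers. edgeR 4.0.16 (R 4.3.3) was run on all genes with TMM scaling, its expression filter and no covariate, with Benjamini-Hochberg adjustment. CPM used TMM library sizes, log2 CPM a prior count of 2, and lengths the GENCODE M21 exons (GRCm38). Counts on features without a symbol were 0.104% of the total. DESeq2 1.42.0, other scalings, filters and covariates and leaving out each tumor were alternatives. The fits were tested on simulated data. The closest pair of libraries, Dnmt3a+/+ tumor 1 and Dnmt3a+/Δ tumor 1, differed by far more than counting noise (chi-square of 90.8 per degree of freedom), so none was counted as a repeat. Replicate numbers were not treated as pairs, since the deviations of same-numbered tumors correlated at 0.57, 0.07 and -0.04.

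The 9 genes and the lists were chosen with earlier results of these data known, and the named genes were these 9, the listed pathway genes, Dnmt3a and the 3 most similar genes to each. Depth was 38472738 to 64314999 counts per tumor, and the lowest counts among the 9 genes were 12 for Ptger3 and 13 for Ptger2, where counting error is largest.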

Additional observations from a re-analysis of the deposited data

Results flagged for a closer look

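Within the 4 Dnmt3a+/Δ BM tumors, 13 of 63 values examined had 1 tumor farther from its nearest neighbour, relative to the group's range, than Dixon's critical value for 4 samples allows. For normally distributed values, chance flags about 1 in 20 such groups, or 3.15 here. Whether levels in CPM follow that distribution was not tested, and no share over all tested genes was computed for this rule. The values are also not independent, since 10 of the 13 came from Dnmt3a+/Δ tumor 2, which was highest in 24.7% and lowest in 25.3% of tested genes. That tumor held the highest Ptgs2 at 111.3 CPM, Ptges at 36.3 CPM and Ptger2 at 1.59 CPM, and the next tumors had 9.54, 9.51 and 0.508 CPM. Of the surrounding genes, it held the highest Pla2g4c (1.53 CPM), Tbxas1 (3.79 CPM), Abcc4 (127.5 CPM), Alox15 (388.9 CPM), Il6 (13.1 CPM), Cxcl1 (73.1 CPM) and Crem (31.9 CPM).

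Other tumors gave 3 values. Ptgis, the prostacyclin synthase, was lowest in Dnmt3a+/Δ tumor 1 at 0.848 CPM. Fos was highest in Dnmt3a+/Δ tumor 4 at 215.2 CPM, and the mean of the neutrophil list was highest in Dnmt3a+/Δ tumor 1 at 3.59 log2 CPM. The controls, with 3 tumors, were too few for this rule.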

How the results depend on the processing

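No alternative brought any of the 9 genes to a call, and all but Ptgs2 and Ptger1 kept their direction under every alternative. Ptgs2 was -0.19 in edgeR and -0.22 in DESeq2 without Dnmt3a+/Δ tumor 2, and over the fits leaving out 1 tumor ranged from -0.19 to 2.54. Ptger1 was 0.16 on library size alone (where the median over tested genes was 0.21), 0.024 with upper-quartile scaling, 0.056 with the replicate number as a block, and from -0.20 to 0.064 leaving out 1 tumor. Ptgs2 was 0.70 with the block and 3.03 in BMT18 alone, Slco2a1 was -0.32 with experiment as a covariate or with the block, Ptger4 was -0.02 on library size alone, and BMT18 alone gave 1.39 for Ptger2 and -1.27 for Hpgd. Ptger3 had an unadjusted p of 0.165 with the block (log2 fold change -1.67). The block changed no call. Of the 9, the number at an unadjusted p under 0.05 was 1, became 2 on library size alone, with upper-quartile scaling, without the filter and with experiment as a covariate, became 3 in DESeq2 with or without that covariate, and ranged from 0 to 2 leaving out 1 tumor (0 without Dnmt3a+/+ tumor 2 or Dnmt3a+/Δ tumor 2). These were different genes: Ptger3 and Ptges on library size alone, with upper-quartile scaling, without the filter and without Dnmt3a+/Δ tumor 1 or 3, Ptges alone with the block and without Dnmt3a+/Δ tumor 4, Ptgs1 and Ptges with experiment, Ptgs1 alone without Dnmt3a+/+ tumor 1, Ptger3 and Slco2a1 without Dnmt3a+/+ tumor 3, and Ptgs1, Ptges and Ptger3 in DESeq2. Over all genes edgeR gave 0 calls and DESeq2 300, 171 without Dnmt3a+/Δ tumor 2 and 485 with experiment as a covariate, both chosen after seeing the data. Over all genes, those at an unadjusted p under 0.05 numbered 1744 in edgeR, 2163 in DESeq2 and 2802 in DESeq2 with experiment. In edgeR they numbered 1975 on library size alone, 1759 with upper-quartile scaling, 2328 with experiment and 1885 with the block, each of 15810 genes. Without the filter they numbered 2006 of 24352 genes. DESeq2 without a covariate gave a p-value for 8 of the 9 genes. Leaving out 1 tumor, edgeR gave 883 (without Dnmt3a+/+ tumor 2) to 2143 (without Dnmt3a+/Δ tumor 1), with 1114 without Dnmt3a+/Δ tumor 2. The substrate release median of 0.80 was 1.01 on library size alone, 0.52 with experiment, 1.14 in BMT18 alone, 0.59 with the block, 0.51 in DESeq2 without Dnmt3a+/Δ tumor 2, 0.47 in DESeq2 with experiment, and -0.13 (without Dnmt3a+/Δ tumor 1) to 0.91 leaving out 1 tumor. The surface colonocyte median of -1.21 was -0.63 with the block. The median of export and reduction was 0.30 on library size alone, and that of the other receptors ranged from 0.45 to 1.35 leaving out 1 tumor. The causes were not tested. Ptger2 and Ptger3 rest on few counts in some tumors.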
